A study of Mus musculus with 6 samples.

Results

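A set of 10 genes that mark gut and stomach were followed in the embryonic pancreas of mice that lack an enhancer of Ptf1a. They are Cdx2, Shh, Ihh, Osr2, Hnf4g, Lgals4, Plac8, Tm4sf20, Fabp1 and Vil1, 10 of the 31028 symbols in the RNA data. Of these, 7 are also in the ATAC data (Hnf4g, Fabp1 and Vil1 are not). The genes were chosen by their differences in RNA and ATAC level between the genotypes in these same libraries and by their levels in cell types. Each such value is therefore a description and carries no test.

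All groups were C57BL/6 embryos. The controls (WT) were Ptf1a+/+ embryos. The mutants (KO) carried Ptf1aenh-delta/enh-delta, a homozygous deletion of an enhancer of Ptf1a, the gene of a transcription factor that early pancreatic progenitors need. Multipotent pancreatic progenitors were dissected by hand at embryonic day 10.5 (E10.5), with 5 to 9 embryos in each pool. They went into single-cell RNA libraries and into separate single-cell ATAC libraries, in which a transposase marks open chromatin. The E13.5 libraries are ATAC only and each pools the pancreas of 6 embryos. Every comparison is between 1 WT and 1 KO library and has no replicate error. Intervals are 95% intervals that cover counting error only. The month named in the E13.5 barcodes differs between WT and KO, and at that stage the effects of month and of genotype cannot be told apart.

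The pancreas buds from the foregut endoderm between the stomach and the duodenum, and the neighbouring gut keeps identity programmes that the pancreas does not use. Cdx2 is the homeodomain factor that sets intestinal identity, and Hnf4g is a nuclear receptor of enterocytes. Shh and Ihh encode Hedgehog ligands that the gut epithelium sends to its mesenchyme, and the early pancreatic epithelium is known for excluding Shh. Osr2 encodes a zinc-finger factor found in stomach and other mesenchyme. Lgals4 (a galectin of enterocytes), Tm4sf20 (a tetraspan membrane protein of intestine), Fabp1 (a fatty acid carrier of liver and intestine) and Vil1 (villin, an actin bundler of microvilli) belong to the absorptive epithelium. Plac8 encodes a small cysteine-rich protein found in intestine and in several other cell types.

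The kept RNA cells, those with at least 1000 genes, numbered 451 WT with 4106604 UMIs and 369 KO with 4011819 UMIs. Ptf1a had 142 UMIs in WT and 0 in KO. There were 838 WT and 700 KO cells in the ATAC data at E10.5. At E13.5 a score summed from 4 red blood cell genes (Slc4a1, Gypc, Tal1 and Lyl1) reached 15 in 173 of 2314 WT cells and in 259 of 602 KO cells. Those cells were left out, which left 2141 WT and 343 KO cells. The WT and KO libraries shared 1 barcode sequence in the RNA, 0 in the E10.5 ATAC and 2 in the E13.5 ATAC. ATAC values are a gene-level signal that sums to 10000 in each cell, and levels at different stages come from matrices scaled separately.

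RefSeq (GRCm38.p6) gave promoter windows for 6 of the 10 members. The 250 bases before the start are shown for Lgals4 and Plac8, which had higher E13.5 signal in KO, and for Cdx2, the regulator whose E13.5 signal differed little. They are Lgals4 at chr7:28833544-28833793 (plus strand), Plac8 at chr5:100572206-100572455 (minus strand, the upstream of its 2 starts) and Cdx2 at chr5:147307250-147307499 (minus strand). Each is written 5′ to 3′ along the gene, with any match to 7 short motifs in capitals.
Lgals4: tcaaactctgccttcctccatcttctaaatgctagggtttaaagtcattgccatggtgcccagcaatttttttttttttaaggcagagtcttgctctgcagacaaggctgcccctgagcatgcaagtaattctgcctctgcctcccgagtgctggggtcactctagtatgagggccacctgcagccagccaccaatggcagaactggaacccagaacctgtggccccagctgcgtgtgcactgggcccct
Plac8: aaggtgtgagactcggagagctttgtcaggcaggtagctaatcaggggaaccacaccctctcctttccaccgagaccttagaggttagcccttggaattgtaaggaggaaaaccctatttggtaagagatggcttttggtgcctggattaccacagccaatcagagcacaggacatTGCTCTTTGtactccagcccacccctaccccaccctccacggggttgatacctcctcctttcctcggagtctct
Cdx2: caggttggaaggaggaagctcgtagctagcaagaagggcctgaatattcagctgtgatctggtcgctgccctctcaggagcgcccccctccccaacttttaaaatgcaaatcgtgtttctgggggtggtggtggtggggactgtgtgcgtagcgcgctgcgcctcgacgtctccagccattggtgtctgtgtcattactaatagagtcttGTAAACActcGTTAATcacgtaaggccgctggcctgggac
The motifs were searched on both strands. They were CAAAGNNCA for HNF4, GTTAAT for HNF1, TTTATNG for CDX factors, AGATAA for GATA factors, ATCAAT for ONECUT factors, TGTTTAC for FOXA factors and TGGGAA for RBPJ. Plac8 had 1 match, to HNF4, starting 74 bases before its start, and 5.49% of all 32851 windows hold that motif. Cdx2 had a FOXA match starting at 40 bases and an HNF1 match at 30 bases before its start, motifs held by 3.17% and 6.43% of all windows. These Lgals4 letters held none of the 7 motifs, and no matches in these windows overlapped. The share of all windows with the other motifs was 9.81% for CDX, 9.99% for GATA, 6.72% for ONECUT and 21.6% for RBPJ. Of the windows not shown, Fabp1 held 3 CDX matches and 1 HNF1 match, Ihh 1 HNF4 match, Vil1 1 RBPJ match and the second Plac8 start none. The matches are descriptions of letters.

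At E10.5 the RNA of all 10 members was scarce. The kept cells held 94 member UMIs in WT and 130 in KO, and 690 of 820 cells held none. Levels are given as CPM, a gene's UMIs scaled to the same total for each library or class of cells. Counted together the members made up 22.9 CPM in WT (18.5 to 28.0) and 32.4 CPM in KO (27.1 to 38.5), a ratio of 1.42 (exact conditional interval 1.08 to 1.87). The median gene of this comparison was itself 1.13 times higher in KO, and with that factor taken out the ratio was 1.25 (0.953 to 1.65). Of the 10 members, 9 had at least 1 UMI and 1, Plac8, reached the minimum of 50 UMIs used for the comparison across all genes. That member was within 2-fold, so 0 of 1 was called, against 0.357% of the 10367 tested genes called higher and 0.270% called lower in KO.

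Of the Hedgehog ligands, Ihh had 12 UMIs in 7 WT cells and 28 UMIs in 21 KO cells, 2.92 against 6.98 CPM, a ratio of 2.39 (1.18 to 5.16). Without doublets it was 1.92 (0.910 to 4.26), and in epithelial clusters alone 2.58 (0.945 to 8.10). Shh had 9 UMIs in WT and 11 in KO, 2.19 against 2.74 CPM, a ratio of 1.25 (0.471 to 3.42). The intervals of the 2 ratios overlap, and whether the ratios differ from each other was not tested.

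Among the regulators, Cdx2 had 14 UMIs in 10 WT cells and 26 in 15 KO cells, 3.41 against 6.48 CPM, a ratio of 1.90 (0.957 to 3.94). Hnf4g had 11 UMIs in WT and 5 in KO, a ratio of 0.465 (0.127 to 1.45). Both intervals included 1. Osr2 had 0 UMIs in either library, for which the Poisson interval reaches up to 0.898 CPM in WT and 0.920 CPM in KO.

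Of the absorptive genes, Vil1 had 7 UMIs in WT and 10 in KO, a ratio of 1.46 (0.502 to 4.53). Lgals4 had 2 in each library, Fabp1 0 in WT and 2 in KO, and Tm4sf20 0 in WT and 1 in KO. A difference in these last 3 was not detectable at this depth. Plac8 was the most abundant member, with 39 UMIs in 34 WT cells and 45 UMIs in 26 KO cells, 9.5 against 11.2 CPM, a ratio of 1.18 (0.752 to 1.86). The KO doublet calls carried part of these counts: 7 KO cells called doublets by scrublet held 24 member UMIs, 12 of them Plac8, and the 4 WT doublet calls held 0. Without them the summed ratio was 1.18 (0.886 to 1.58), that of Ihh was 1.92 (0.910 to 4.26) and that of Plac8 was 0.886 (0.540 to 1.45), which turns the direction for Plac8.

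Cells were grouped into 7 clusters without using the members, and clusters were named from markers of pancreatic and neighbouring cell types. Of the 820 cells, labelled as progenitors, 144 were in the progenitor-like class, 153 in the hormone-led endocrine-like class and 307 in mesenchyme-like clusters. The libraries differed in make-up. WT and KO cells numbered 108 and 36 in the progenitor-like class and 54 and 99 in the endocrine-like class. A Neurog3-led cluster had 12 and 39, a hepatobiliary-like class 16 and 37 and an unnamed cluster 89 and 23. Mesenchyme-like cluster 0 had 151 and 100, and mesenchyme-like cluster 4 had 21 and 35. The part of make-up in the ratios over all kept cells was not tested. Plac8 was highest in the hormone-led endocrine-like class (153 cells), at 20.4 CPM (14.5 to 27.9), and 23 of those cells had a UMI. It had 11.4 CPM (5.88 to 19.9) in mesenchyme-like cluster 4, 6.93 CPM (3.33 to 12.8) in mesenchyme-like cluster 0 and 6.4 CPM (3.41 to 10.9) in the progenitor-like class. In the endocrine-like class Plac8 was at 21.4 CPM in WT and 19.8 CPM in KO, a ratio of 0.92 (0.47 to 1.9), with a UMI in 13 of 54 WT cells and 10 of 99 KO cells. A single KO cell called a doublet held 12 of the 24 KO UMIs, and all 7 KO doublet calls lay in this class. Without doublets KO was at 11.2 CPM, the ratio was 0.521 (0.223 to 1.19) and the level of the class over both libraries was 15.2 CPM (10.0 to 22.1). Shares of cells gave another order, 15% in the endocrine-like class (median 11586 UMIs per cell) and 19.6% in mesenchyme-like cluster 4 (median 20323), so the shares at these depths do not set the endocrine-like class apart from that cluster. Mesenchyme-like cluster 4 itself held endocrine RNA: the hormone gene Pyy was at 6877 CPM in WT and 4437 CPM in KO there, against 183.3 and 277.6 CPM in mesenchyme-like cluster 0. The part of that RNA in the Plac8 level was not tested. With each cell thinned to 2000 UMIs, 7 of 152 endocrine-like and 1 of 56 mesenchyme-like cluster 4 cells had a Plac8 UMI (45 KO and 61 WT shallower cells were left out).

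Shh was highest in the hepatobiliary-like class, at 10.2 CPM (4.38 to 20), from 8 UMIs in 7 of 53 cells, 7 of the UMIs in KO. That class had 16 WT and 37 KO cells, and its ratio without doublets was 2.87 (0.369 to 129). The unnamed cluster, led by Sox17 and cell-cycle genes, had 6.34 CPM from 3 UMIs, all in WT, which gave 89 of its cells against 23 from KO. The progenitor-like class had 1.97 CPM (0.537 to 5.04) from 4 UMIs. The hormone-led endocrine-like class had 1 UMI, and the Neurog3-led cluster and mesenchyme-like cluster 4 had 0 (0 of 51 and 0 of 56 cells). Shh UMIs were thus fewest in the endocrine-like, Neurog3-led and second mesenchyme-like clusters, and the intervals of neighbours in this order overlap.

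Ihh was highest in mesenchyme-like cluster 0, at 11.1 CPM (6.34 to 18.0), with 7.05 CPM in WT and 16.9 in KO. Endocrine-like cells had 4.71 CPM (2.15 to 8.94) and progenitor-like cells 4.43 CPM (2.03 to 8.41). Cdx2 was at 8.32 CPM (4.30 to 14.5) in mesenchyme-like cluster 0, at 6.89 CPM (3.77 to 11.6) in progenitor-like cells and at 4.71 CPM (2.15 to 8.94) in endocrine-like cells, with 0 in the Neurog3-led cluster. Without doublets the endocrine-like class was at 2.26 CPM for Cdx2 and 1.69 CPM for Ihh. In progenitor-like cells Cdx2 had 7 UMIs in each library, 4.90 CPM in WT and 11.7 in KO, a ratio of 2.38 (0.713 to 7.95). In mesenchyme-like cluster 0 it had 2 UMIs in WT and 10 in KO, and 1 KO cell held 5 of the 10. Its ratio there without doublets was 7.01 (1.49 to 65.8), an interval that counts UMIs of the same cell as separate. Hedgehog ligands and Cdx2 are epithelial genes, and the carriers within the mesenchyme-like classes were mostly positive for the epithelial gene Epcam: 6 of 8 Cdx2 carriers and 9 of 14 Ihh carriers, against 40.7% of the 307 cells of those classes. The carriers also had more UMIs, a median of 18660 for Cdx2 and 13575 for Ihh, against 3220 for those classes. For all 10 members the intervals of neighbouring classes in the order of levels overlapped, so no class stood apart from the next.

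**Figure D1:**
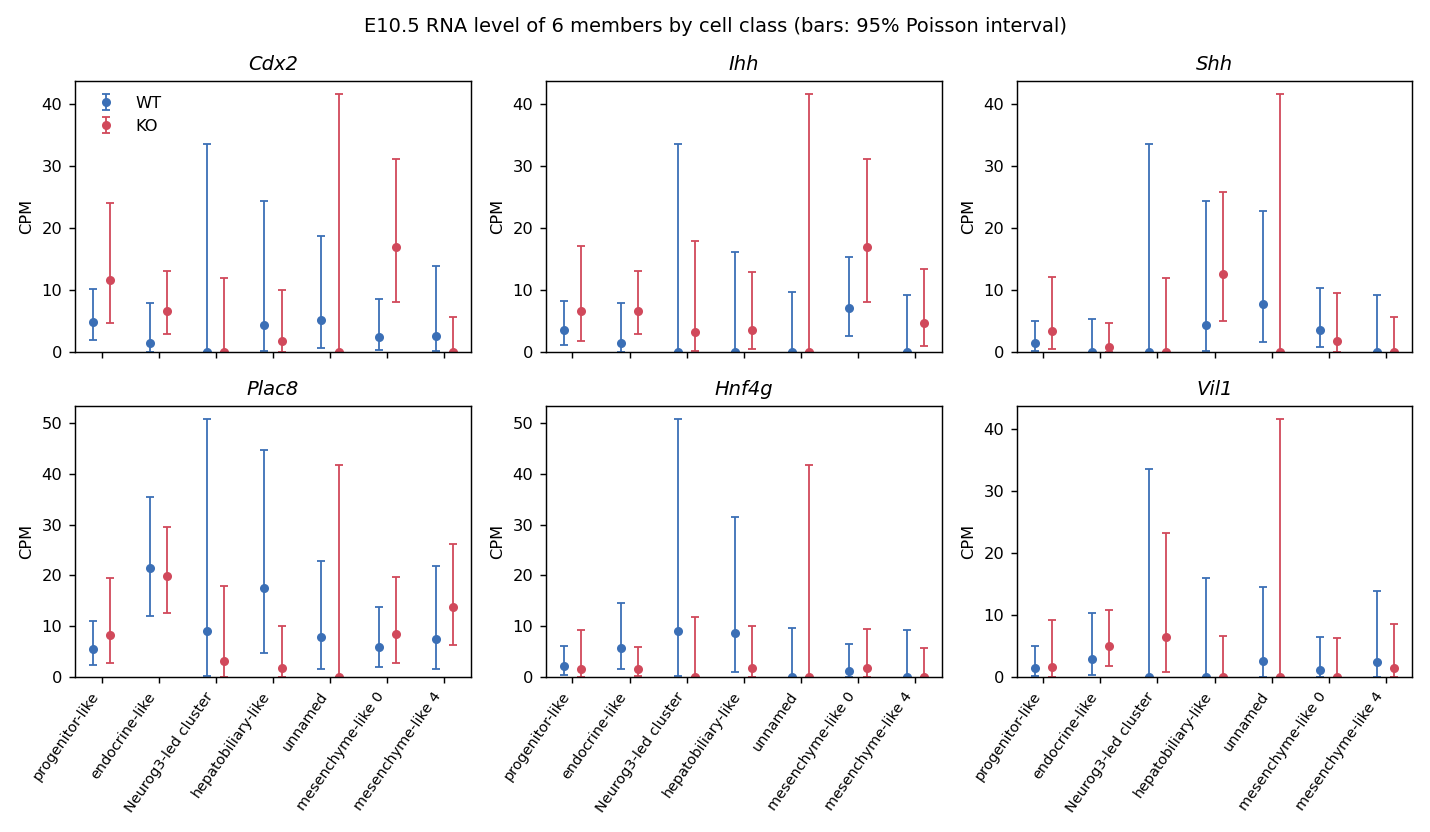
Level of 6 members in RNA at E10.5 by cell class, in CPM (linear axis from 0), with WT in blue and KO in red and bars for the 95% Poisson interval of the counts. Plac8 is highest in the endocrine-like class at 20.4 CPM over both libraries, Shh in the hepatobiliary-like class at 10.2 CPM, and most WT and KO intervals overlap.

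A few cells held many of the member UMIs. Of 820 kept cells, 105 had 1 member, 17 had 2 and 8 had 3 or more. Those 8 cells, 4 WT and 4 KO, held 64 of 224 member UMIs, among them 20 of 40 for Cdx2, 12 of 40 for Ihh and 20 of 84 for Plac8. They were deep, with 12851 to 27793 UMIs against a median of 8887 for all kept cells, and 1 was called a doublet. That KO cell held 12 Plac8, 4 Cdx2, 4 Ihh and 1 Shh UMIs. All 8 had Epcam UMIs, 4 lay in mesenchyme-like cluster 0, 3 in the progenitor-like and 1 in the endocrine-like class. Chosen for their members, they also differed in other genes. Foxa1, a pioneer factor of gut endoderm, was at 100.2 CPM in them and 17.1 CPM in the other 812 cells. Onecut2, a factor of liver, duct and gut, was at 929.6 and 205.6 CPM. The hepatobiliary markers (12 genes), which include Onecut2, were together lower, at 2627 against 3424 CPM. The pancreatic progenitor markers were at 473.2 against 827.1 CPM and the tip and acinar markers at 228.2 against 358.4 CPM. The mesenchyme markers were at 773.8 against 610.9 CPM and the Hedgehog list at 428.6 against 318.8 CPM. The intestinal transcription factor list without members (27 genes) was at 935.2 against 519.6 CPM, the absorptive list (42 genes) at 1904 against 1076 CPM, and the endocrine markers (16 genes) at 812.7 against 10266 CPM. Other gut lists were lower or close: the gut epithelium markers (10 genes) were at 1625 against 4004 CPM, the intestinal secretory and crypt list (30 genes) at 1754 against 5717 CPM and the stomach list (30 genes) at 306.2 against 276.1 CPM. Foxa2, another pioneer factor of endoderm, was at 77.9 against 132.5 CPM. Within the intestinal transcription factor list, Cdx1, Cdx4 and Isx had 0 UMIs in these 8 cells, and 2, 4 and 3 UMIs in all kept cells. Foxa1, Foxa2, Onecut2 and these 3 genes were picked after their values were seen. Cdx2 and Ihh were found in the same cell 7 times, of 25 Cdx2 and 28 Ihh carriers, and Ihh and Shh 4 times, of 28 and 18.

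In the E10.5 RNA 4 of the 5 lists of the same programmes had no gene past 2-fold, and the median log2 ratio of all tested genes was 0.128. Of 14 tested intestinal transcription factors, 0 passed 2-fold (median 0.19, from Nr5a2 at -0.64 to Foxa1 at 0.88). Of 17 absorptive genes 0 passed (median 0.26, from Vill at -0.21 to Anpep at 0.69), and of 4 stomach genes 0 passed (median 0.26, from Gata4 at -0.21 to Barx1 at 0.64). The Hedgehog pathway had 0 of 11 (median 0.19, from Bmp4 at -0.19 to Smo, the signal transducer, at 0.42). Among 11 intestinal secretory and crypt genes 3 were higher and 1 lower (median 0.52), with Ghrl, the ghrelin gene, at 1.85 and Gip, an enteroendocrine hormone gene, at -1.16. Ghrl and Gip, which differ in direction, are also hormone genes of endocrine cells. The hormone-led class had 99 KO and 54 WT cells, and the part of make-up in this list's values was not tested.

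In the E10.5 ATAC data the 7 listed members were nearly equal in the 2 libraries. All 7 passed the filter (signal in 10% or more of the cells of either genotype), and 0 of 7 had a log2 ratio of at least 0.5 either way, against 0.231% of 8219 genes higher and 0.414% lower in KO. Their median was 0.12, against 0.00 over all tested genes. Mean Cdx2 signal was 3.25 in WT and 3.55 in KO (0.13 on the log2 scale), that of Shh 2.25 and 2.18 (-0.05) and that of Ihh 2.39 and 2.61 (0.13). Osr2 had 2.04 and 1.93 (-0.08). The absorptive genes had low signal in both: Lgals4 0.654 and 0.625 (-0.07), Plac8 0.658 and 0.714 (0.12) and Tm4sf20 0.539 and 0.621 (0.20). Signal and RNA ranked the members differently: Osr2 had signal in 63.8% of WT cells and 0 UMIs in the RNA, while Plac8, the most abundant member in RNA, had among the lowest signals.

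At E13.5 the members separated. Lgals4, Plac8 and Tm4sf20 had higher signal in KO than in WT, Shh and Ihh did so to a smaller degree, and Cdx2 and Osr2 had nearly the same mean. Of the 7, 3 passed a log2 ratio of 0.5 (1.41-fold), all higher in KO, and 0 were lower, against 1.92% of 8222 genes higher and 1.79% lower. Because the members were chosen in view of this contrast, nothing is read from that count. Their median was 0.42 and that of all tested genes 0.01.

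Lgals4 had a mean of 0.634 in WT and 1.30 in KO (1.04 on the log2 scale), the 11th highest ratio of 8222 genes, with signal in 30.9% of WT and 56.6% of KO cells. Plac8 had 0.507 and 0.936 (0.88, the 24th highest), with signal in 30.9% and 54.8% of cells. Tm4sf20 had 0.368 and 0.975 (1.41, the 4th highest), with signal in 23.4% and 55.7%. Over all used cells the shares of cells with signal thus differed, and KO cells had signal at more genes altogether, a median of 5371 against 3549. The part of this depth difference in the shares was not tested. In cells with signal the means were 2.05 and 2.30 for Lgals4, 1.64 and 1.71 for Plac8 and 1.57 and 1.75 for Tm4sf20.

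Among the Hedgehog ligands, Shh had a mean of 1.11 in WT and 1.48 in KO (0.42) and Ihh 1.62 and 2.12 (0.39). Shh signal was present in 44.7% of WT and 65.3% of KO cells, and Ihh signal in 53.0% and 72.6%. Cdx2, the factor above the intestinal programme, had 2.38 and 2.48 (0.06), and Osr2 1.36 and 1.33 (-0.03). Osr2 signal was present in 40.6% of WT and 59.8% of KO cells at nearly equal means.

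**Figure D2:**
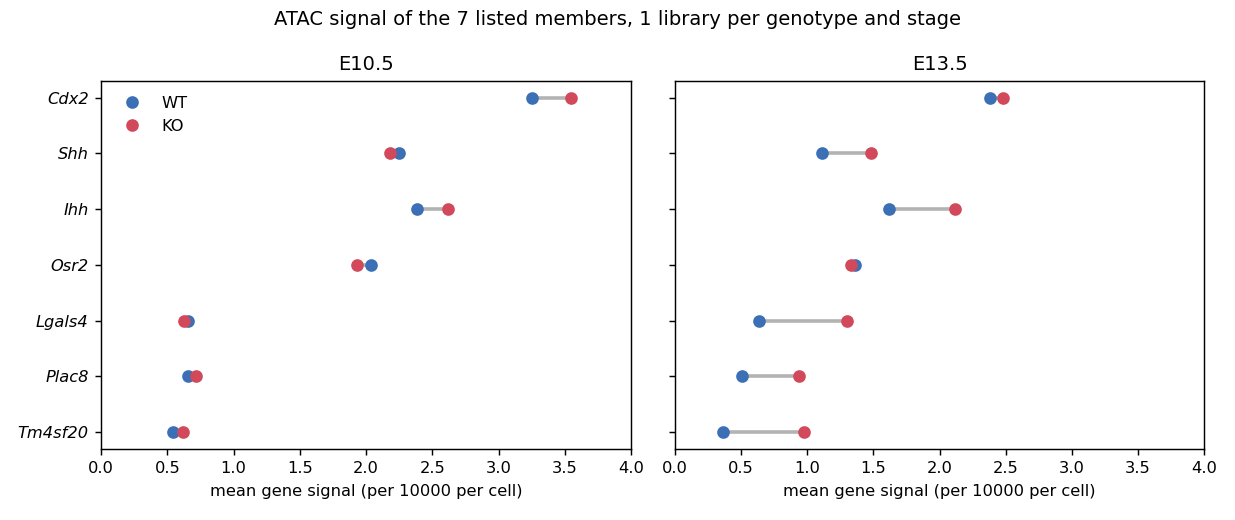
Mean ATAC signal of the 7 listed members in WT (blue) and KO (red) at E10.5 and E13.5, on a linear axis in units of the per-cell total of 10000, with 1 library per point. The pairs lie close together at E10.5, and at E13.5 Lgals4, Plac8 and Tm4sf20 are 1.30, 0.936 and 0.975 in KO against 0.634, 0.507 and 0.368 in WT.

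To compare cells of like complexity, each stage's cells were split into tertiles by the number of genes above 0. At E13.5 Lgals4 had log2 ratios of 1.10, 0.60 and 1.14 from the lowest to the highest tertile, Plac8 0.96, 0.67 and 0.84, and Tm4sf20 2.01, 1.00 and 1.30. All 3 were higher in KO in each tertile. From the lowest to the highest, the tertiles held 764, 757 and 620 WT cells and 64, 71 and 208 KO cells. In the lowest, none of the 3 genes had signal in 525 WT and 38 KO cells, so its ratios rest on few KO cells. In the middle tertile, where WT and KO cells had medians of 3701 and 3736 genes above 0, Lgals4 had 0.652 in WT and 0.987 in KO. Shares of cells with signal were closer there, 29.5% in WT and 32.4% in KO for Plac8, and the mean in Plac8 cells with signal was 1.60 in WT and 2.32 in KO. Ihh was higher in KO in every tertile (0.68, 0.18 and 0.35), and Shh was lower in the lowest (-0.37) and higher in the others (0.35 and 0.78). Cdx2 (0.01, -0.29 and 0.17) and Osr2 (-0.42, -0.08 and 0.08) had both signs among the tertiles. At E10.5 no member reached 0.5 in any tertile, and the highest was Plac8 at 0.46 in the middle one.

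**Figure D3:**
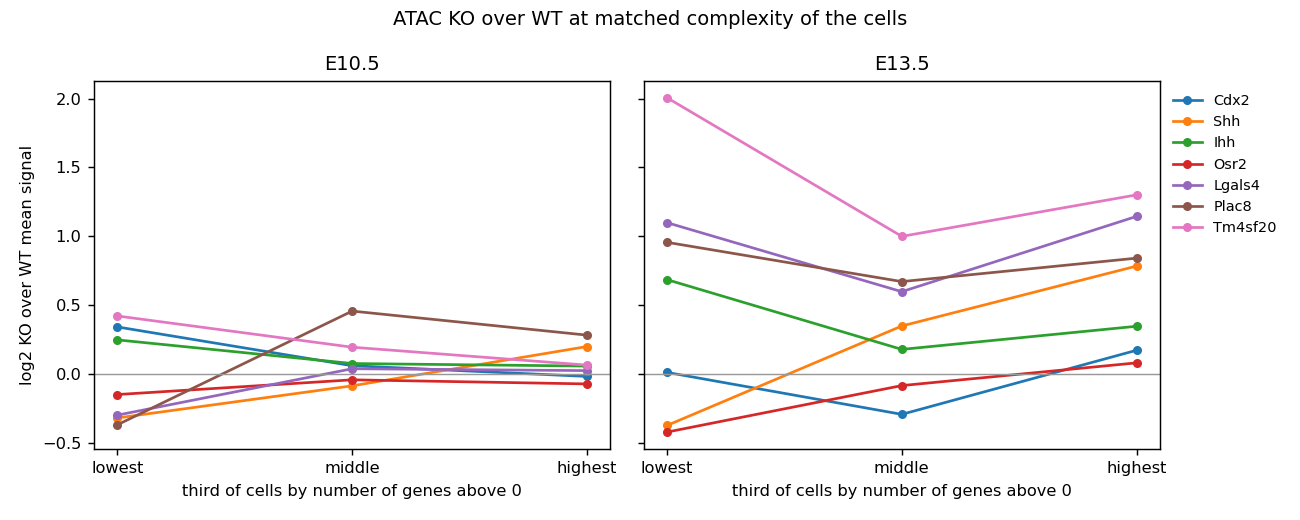
log2 ratio of KO over WT mean ATAC signal for each member in tertiles of cells by number of genes above 0, at E10.5 (left) and E13.5 (right), with a line at 0 for equal levels. At E13.5 Lgals4, Plac8 and Tm4sf20 lie at 0.60 or above in every tertile, while at E10.5 all values lie between -0.37 and 0.46.

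The E13.5 cells fell into a largest cluster (cluster 0, 1084 WT and 237 KO cells used), an endocrine-like cluster (373 and 47), cluster 1, which holds cells of low complexity (671 and 41, median 1761 genes above 0), and a red-cell-like cluster of which 13 WT and 18 KO cells stayed below the score of 15. In cluster 0 all 7 members were higher in KO and 4 passed 0.5, against 1.87% of 8229 genes higher and 1.23% lower. Tm4sf20 had a log2 ratio of 1.41, Plac8 1.31 and Lgals4 1.24, the 2nd, 4th and 5th highest of all genes there. Shh had 0.69, with 1.11 in WT and 1.79 in KO, the 54th highest. Ihh had 0.44, Cdx2 0.31 and Osr2 0.14.

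The endocrine-like cluster showed only part of this pattern. There 1 member was past 0.5 higher (Tm4sf20, 0.77) and 1 lower (Cdx2, -0.95), against 9.55% of 8217 genes higher and 10.0% lower, so 2 of 7 members lay among many genes past 0.5 in a set with 47 KO cells. Lgals4 had 0.694 in WT and 0.715 in KO (0.04) and Plac8 0.841 and 0.826 (-0.03). Shh (0.34) and Ihh (0.14) were higher in KO there, and Osr2 (-0.37) was lower. Cdx2 had 2.62 and 1.36. WT endocrine-like cells had a Plac8 signal of 0.841 against 0.40 in WT cells of cluster 0. In cluster 1 the 41 KO cells gave Tm4sf20 2.44, Lgals4 1.09, Ihh 1.09, Plac8 0.92, Osr2 -0.72 and Shh -0.82. Only 2 of these KO cells had Lgals4 signal and 3 had Plac8 signal.

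Clustering at a finer resolution gave a cluster led by Ptf1a and Rbpjl (841 WT and 74 KO cells) and one with Onecut2 among its leading genes (308 and 164). Lgals4, Plac8, Tm4sf20 and Shh were higher in KO in both. Lgals4 had 0.90 in the Ptf1a-led and 1.36 in the Onecut2-led cluster, Plac8 1.07 and 1.32, Tm4sf20 0.90 and 1.59, and Shh 0.53 and 0.84. In WT the 2 clusters had close levels, 0.641 and 0.627 for Lgals4, 0.401 and 0.423 for Plac8 and 0.356 and 0.326 for Tm4sf20. In KO the Onecut2-led cells had 1.61, 1.06 and 0.982 for these 3 genes and the Ptf1a-led cells 1.20, 0.842 and 0.665. These 2 clusters were examined after the data had been seen.

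**Figure D4:**
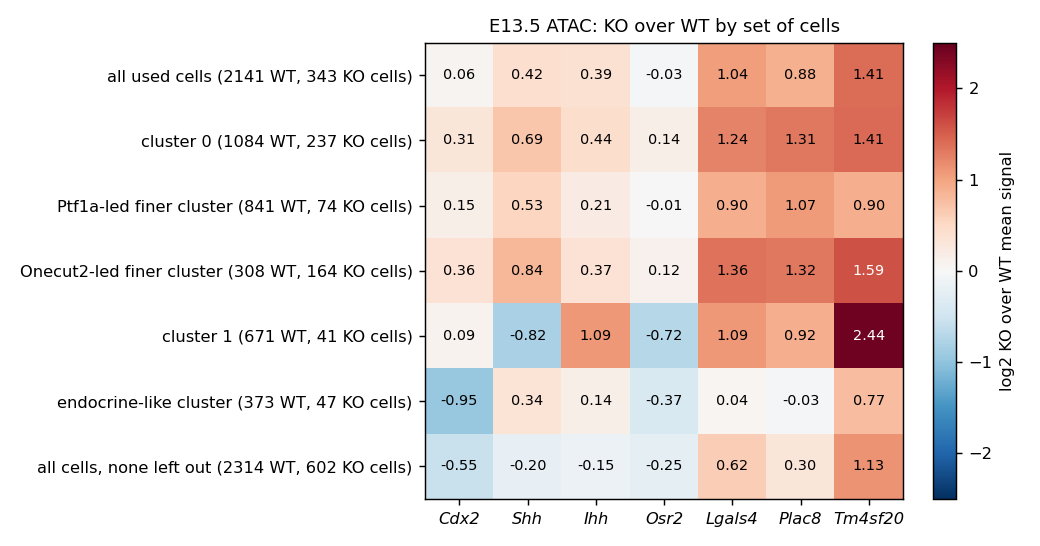
log2 ratio of KO over WT mean ATAC signal at E13.5 for 7 members (columns) in 7 sets of cells (rows, with the number of cells per genotype), red for higher and blue for lower in KO. Lgals4, Plac8 and Tm4sf20 are at 0.90 or above in cluster 0 and both finer clusters. In the endocrine-like cluster Lgals4, Plac8 and Tm4sf20 are 0.04, -0.03 and 0.77. Cdx2, Shh and Ihh are below 0 when no cells are left out.

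Per cell, the 3 members with the highest ratios were summed; as they were picked for that, the values only describe these libraries. In cluster 0 the summed signal of Lgals4, Plac8 and Tm4sf20 had a median of 0.831 in WT and 2.56 in KO. All 3 genes had signal in 67 of 1084 WT cells (6.18%) and in 97 of 237 KO cells (40.9%), and none had signal in 30.4% of WT and 10.1% of KO cells. Above the 95th percentile of WT cells (4.66) lay 62 of 237 KO cells, 26.2% (exact binomial interval 20.7% to 32.2%, for counting of cells only). KO cells had more genes above 0, a median of 5884 against 4278. In the middle tertile of complexity over all used cells the medians were 0.85 and 1.15, all 3 genes had signal in 18 of 757 WT (2.38%) and 4 of 71 KO cells (5.63%), and none had signal in 37.0% and 31.0%. The share above the WT percentile was there 13 of 71 KO cells, 18.3% (10.1% to 29.3%). At E10.5 it was 37 of 457, 8.10% (5.76% to 11%), in the largest cluster of that stage. The stages were clustered separately, so that cluster is not cluster 0 of E13.5. Over all 7 members and all used E13.5 cells it was 27 of 343, 7.87% (5.25% to 11.2%).

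**Figure D5:**
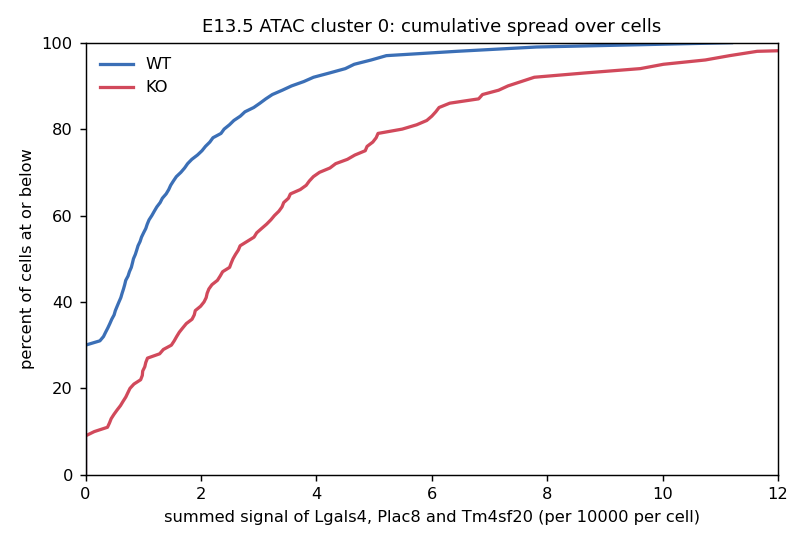
Cumulative percent of cluster 0 cells (vertical axis) at or below a summed ATAC signal of Lgals4, Plac8 and Tm4sf20 (horizontal axis, per 10000 per cell, drawn to 12) at E13.5 for WT (blue, 1084 cells) and KO (red, 237 cells). The KO curve lies to the right of the WT curve over the range drawn, with medians of 2.56 and 0.831, and starts at a lower share of cells without signal.

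The regulators and ligands depended on leaving out the red-cell-like cells. With no cells left out, Cdx2 was -0.55, Shh -0.20, Ihh -0.15 and Osr2 -0.25 on the log2 scale, so Cdx2, Shh and Ihh turned from higher to lower in KO. Lgals4 (0.62), Plac8 (0.30) and Tm4sf20 (1.13) kept their direction. The cells left out had little Cdx2 and Shh signal: 0.712 and 0.368 in WT and 0.281 and 0.168 in KO. Just below the score of 15, in cells from 10 to under 15 (70 WT and 16 KO), the summed member signal averaged 7.49 in WT and 4.82 in KO. Just above it, from 15 to under 20 (34 and 11 cells), it averaged 7.81 and 4.89, and at 20 or more (139 and 248 cells) 3.31 and 2.96.

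Markers of other cell types in the used E13.5 cells were as follows. The 7 listed of 10 erythroid markers summed to a mean of 3.75 in WT (0 to 35.2 over cells) and 4.50 in KO (0 to 31.3), with 6 of 7 higher in KO, and in cluster 0 to 3.84 and 4.08. They include Slc4a1, Gypc, Tal1 and Lyl1, whose sum was held below 15 by the choice of these cells. The 14 mesenchyme markers summed to 15.2 (0 to 109) and 15.6 (0 to 82.6), with 6 higher. The 5 listed of 10 gut epithelium markers (Isx, Tff3, Sox2, Hnf4a and Pyy) summed to 6.04 (0 to 79.4) and 7.68 (0 to 67.6), with 5 of 5 higher in KO. In cluster 0 they summed to 6.07 and 8.19. The 11 listed of 14 tip and acinar markers summed to 20.8 (0 to 198.9) in WT and 15.5 (0 to 49.2) in KO (-0.42), with 2 of 11 higher in KO. The 10 listed of 11 trunk and duct markers summed to 42.9 (0 to 185.8) and 36.0 (0 to 114.4), -0.25, with 2 of 10 higher. The 16 endocrine markers summed to 23.1 (0 to 156.1) and 20.7 (0 to 110.5), -0.16, with 6 higher. The 6 endothelial and 5 immune markers differed by -0.03 and 0.04. No listed marker of these lists had a mean of 0, and Cdx1, Cdx4, Sox21, Nkx6-3 and Cldn18 are not in the ATAC matrix. The part of gut cells, or of the other cell types, in the members' differences was not tested.

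For the other genes of these programmes, the share of all genes past 0.5 higher was 1.92% in all used cells and 1.87% in cluster 0. These lists were chosen with earlier results of these data known, so nothing is read from their counts. Of 16 tested intestinal transcription factors outside the members, 2 passed 0.5 in all used E13.5 cells and 5 in cluster 0, all higher in KO, with medians of 0.27 and 0.27. Isx, an intestine-specific homeobox gene, was highest, 0.450 in WT and 0.932 in KO over all used cells (1.05) and 0.433 and 0.979 in cluster 0 (1.18). The lowest were Nr5a2, a nuclear receptor of the acinar lineage, at -0.49 in all used cells and Foxa3 at -0.39 in cluster 0. Of 17 absorptive genes outside the members 1 and 2 passed, with medians of 0.07 and 0.17, and Mttp, a lipid transfer protein gene, was lowest at -0.27 and -0.29. Of 6 stomach genes outside the members 1 passed in each set, Tff1, a trefoil factor of gastric mucus, at 0.63 and 0.77, and Gast, the gastrin gene, was lowest at -0.36 and -0.08.

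Of the 23 Hedgehog pathway genes 14 are in the ATAC data, and Gli1, a target, is not among them. Of the 12 tested other than Shh and Ihh, 0 passed 0.5 in all used cells or in cluster 0, with medians of -0.09 and -0.08. The lowest were Gas1, a co-receptor gene, at -0.26 in all used cells and Ptch1, the receptor gene and a target of the pathway, at -0.36 in cluster 0. The 12 tested intestinal secretory and crypt genes had medians of 0.13 in both sets, with 1 higher in all used cells (Ghrl, 0.52) and Smoc2 lowest at -0.34, and in cluster 0 with Tff3 highest at 0.52 and Ghrl lowest at -0.69. At E10.5 the same 5 ATAC lists had medians of 0.01 to 0.07 outside the members, and 1 gene passed 0.5, Aqp3 at -0.63. The highest and lowest of the other lists were Foxa2 (0.17) and Vdr (-0.27), Cldn7 (0.27), Osr1 (0.19) and Barx1 (-0.13), Boc (0.31) and Gli3 (-0.17), and Ghrl (0.31) and Dclk1 (-0.18).

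The nearest listed genes on the chromosome had smaller differences than Lgals4, Plac8 and Tm4sf20 at E13.5. Those members were picked for high ratios, so most genes would differ less and nothing is read from this. Positions are on GRCm38 with GENCODE M21. Lgals4 (chromosome 7, 28833854 to 28841708) had Ech1 at 8.64 kb between start sites with a log2 ratio of 0.03, and its other 3 neighbours were between -0.02 and 0.23. The 4 neighbours of Plac8 (chromosome 5, 100553725 to 100572245) were between -0.29 and 0.30. Tm4sf20 (chromosome 1, 82756649 to 82768461) had Mff at 43.6 kb with 0.04 and Agfg1 at 71.0 kb with 0.66, at 0.636 in WT and 1.00 in KO, and its other neighbours were -0.12 and -0.02. Shh (chromosome 5, 28456815 to 28467256) had 4 neighbours between 0.06 and 0.14. Cdx2 (chromosome 5, 147300805 to 147307270) lies 37.3 kb from Pdx1, the pancreatic homeobox gene, which was at 2.68 in WT and 2.29 in KO (-0.23). Its other neighbours were Plut (35.7 kb, -0.25), Pan3 (-0.14) and Polr1d (0.15). Ihh (chromosome 1, 74945315 to 74951672) lies 58.5 kb from Cryba2, which was at 2.76 and 1.91 (-0.53), opposite to Ihh itself. The other neighbours of Ihh were higher in KO, as Ihh was: Fev (0.19), Cnppd1 (0.25) and Zfand2b (0.17). The 4 neighbours of Osr2 (chromosome 15, 35296098 to 35303305) were between 0.04 and 0.38.

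Over the 6 library-by-cluster groups of at least 20 cells at E13.5, the mean signal of Lgals4 was most like that of St8sia3, Gm15050 and Hoxa3 (Pearson r of 0.98, 0.98 and 0.98 among 8221 genes), all 3 of them also leading genes of the Onecut2-led cluster. Plac8 was most like Ndufa6, Smad2 and Mvk (0.97, 0.97 and 0.94), Tm4sf20 like Epha4, Rap1gds1 and Bnip3 (1.00 each), Cdx2 like Pfn2, Tmed3 and Bves (0.99, 0.98 and 0.97), Shh like Itgb3bp, Col3a1 and Zfp280b (0.98, 0.97 and 0.97), Ihh like Actr1b, Tspan31 and Psmd1 (1.00, 0.99 and 0.99) and Osr2 like Fmc1, Acyp1 and Phospho2 (1.00, 0.99 and 0.99). No gene was on the list of more than 1 member. In the E10.5 ATAC, Serinc3 was the most like gene for both Cdx2 (0.99) and Ihh (0.99). In the E10.5 RNA, over 12 such groups, Plac8 was most like Selenop, Dagla and Ccsap (0.92, 0.92 and 0.90). Groups from 1 library share that library and its depth, and with 6 points high values are common, so these are descriptions.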

How the data were processed

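Single-cell RNA (E10.5) and single-cell ATAC (E10.5, E13.5) of embryonic mouse pancreas were used. Per the submitters' processing notes the genome build was mm10. No source used here gives the aligner, annotation or gene-signal tool. RNA values are UMI counts as deposited, whole numbers without normalization. ATAC values are a signal per gene, deposited on a scale on which every cell sums to 10000, as the values show. The members and gene lists were chosen with earlier results of these data known.

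RNA cells with at least 1000 genes were kept. Doublets were called with scrublet in scanpy 1.11.5 and kept in the main values. Each matrix was clustered with scanpy and leidenalg 0.10.2 (2000 variable genes, 30 principal components, 15 neighbours), without the members, Ptf1a and tip/acinar genes, at resolution 0.5 (RNA) and 0.3 (ATAC). The RNA comparison took genes with 50 or more UMIs and log2 of (CPM + 10), a scale that shrinks differences of scarce genes, and called 2-fold. The ATAC comparison took genes with signal in 10% or more of the cells of either library and the log2 ratio of mean signals, and called 0.5. The scaled signal does not give fragments per cell. Intervals are at 95%: exact Poisson for UMI levels, Clopper-Pearson for shares and exact conditional for ratios. With 1 library per group no test was run. Named genes are the members, the highest and lowest gene of each list, and the 3 genes most like a member by Pearson correlation. Chromosomal neighbours and the genes named in cells with several members were added after values had been seen. Functions were tested on simulated data.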

Additional observations from a re-analysis of the deposited data

Results flagged for a closer look

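Some members differed in opposite directions between stages or clusters. None of these differences was tested, since each group is 1 library.

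Shh signal was -0.05 (log2 KO over WT) at E10.5 and 0.42 at E13.5, a difference of 0.47. Lgals4 was -0.07 and 1.04, a difference of 1.10. The E10.5 values are close to 0, and the stages also differ in the tissue dissected.

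Within E13.5, Cdx2 was 0.31 for cluster 0 but -0.95 for endocrine-like cells, a difference of -1.26. Osr2 was 0.14 and -0.37, a difference of -0.52. Plac8 was 1.31 and -0.03, a difference of -1.34. The endocrine-like cluster had 47 KO cells, and 9.55% and 10.0% of its genes were past 0.5 in the 2 directions.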

How the results depend on the processing

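No paired analysis was possible because each group has 1 library. The RNA ratio of summed members stayed above 1, between 1.18 and 1.42, under the 5 alternatives run, but its interval included 1 in 4 of them: without doublets, thinned, with the median-of-ratios factor and in epithelial clusters alone. Member levels in the progenitor-like class (24.6 CPM) were 32.5 CPM at resolution 0.3, 9.04 CPM at 0.8 and 14.3 CPM after thinning; the cause was not tested. All-gene RNA calls numbered 65, against 271 with a pseudocount of 1 CPM and 16 with 50, and their split of 37 higher and 28 lower became 22 and 48 with the median-of-ratios factor. The count of ATAC members past 0.5 stayed at 0 of 7 at E10.5 under 7 alternatives and was 3 or 4 of 7 at E13.5 under 13. With no red-cell-like cells left out Cdx2 (-0.55), Shh (-0.20) and Ihh (-0.15) turned lower in KO, Plac8 was 0.30, and the 3 past 0.5 were Lgals4 and Tm4sf20 higher and Cdx2 lower. Osr2 (-0.03) was 0.26 with a mean of log1p signal. Lgals4 at E13.5 ranged from 0.62 to 1.36, Plac8 from 0.30 to 1.32 and Tm4sf20 from 0.90 to 1.59. In the largest cluster Lgals4 was 1.24, and 0.90 at resolution 0.5, where that cluster holds fewer cells. The share of KO cells above the WT 95th percentile of summed member signal (7.87%) was 23.0% above the 90th, 1.46% above the 99th and 18.8% among cells with at least 2500 genes above 0. The red-cell-like cluster, both finer clusters, the E10.5 red-cell-like cells and the class levels without doublets were alternatives chosen after seeing the data. Depth limits the RNA: 9 of 10 members were below 50 UMIs.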
